A study of Mus musculus with 9 samples.

Results

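The brains of aged mice that drank water with 50 µg/L of perfluorooctane sulfonate (PFOS) were compared with those of aged mice that drank water with 0.5 µg/L, across all genes above 1 FPKM in at least 3 of the 9 libraries of the study. FPKM, a level per gene, is its number of sequenced fragments scaled to transcript length and to the mapped fragments of the library. Of the 2996 genes in the table, 2226 passed this level and were tested. The comparison used 6 of the 9 libraries: 3 of the high dose (H1, H2 and H3) and 3 of the low dose (L1, L2 and L3). All of these mice were 24 months old, were exposed for 7.5 months, were kept specific pathogen free and had their brains perfused at collection. A further group titled C, for which no dose is stated, gave 3 libraries that entered the fit to estimate the spread. Strain, sex, the part of the brain taken and the number of animals behind a library are not stated. The replicates are therefore described as separate libraries, and every p-value measures the spread between these libraries, which may be technical.

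PFOS is a fully fluorinated surfactant that is not broken down in the body and binds to serum albumin and to fatty acid binding proteins. In liver it is known to activate the nuclear receptor PPARα, which controls genes of fatty acid breakdown. In nervous tissue it has been studied mainly for effects on calcium handling, synaptic transmission and glial reactivity. Contrasting a high with a low dose asks how expression differs between exposed groups, without reference to unexposed tissue.

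No gene differed between the doses at an adjusted p under 0.05 (limma, Benjamini-Hochberg over 2226 genes), 0% of those tested, and the lowest adjusted p was 0.961. At an unadjusted p under 0.05 the same test gave 30 genes, or 1.35% of those tested. Of these, 27 lay lower in H (1.21%) and 3 lay higher (0.135%). The same split was 23 lower and 7 higher after median-of-ratios scaling, and 19 lower and 6 higher after quantile scaling. Limma-voom on read counts recovered from the FPKM also called 0 genes at the adjusted threshold, with 32 at an unadjusted p under 0.05, and with quality weights 0 and 165. The count of 30 rested on single libraries: it was 185 without L2, 95 without C1, 20 without L1, 19 without L3, 19 without H2 and 7 without H3. A threshold of 0.05 passes a share of about 0.05 of genes when none differs, and 1.35% lies below that share.

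The ranges of the H and L libraries did not overlap for 202 genes (9.07%), of which 150 lay lower in H (6.74%) and 52 higher (2.34%). Scaling moved that split to 118 lower and 76 higher with median of ratios, and to 101 and 83 with quantiles. An exact rank test of 3 against 3 libraries gives a p of 0.1 at the least, for groups that do not overlap. A share of about 0.1 of genes would thus not overlap when none differs, and 9.07% lies below that share. Absence of overlap in a gene named below is therefore not evidence of a difference by itself. The median log2 difference of H minus L over all tested genes was -0.03. Differences here and below are of the mean log2(FPKM + 1), written H minus L with the standard error from the limma fit (n = 3 libraries per group). The median 95% interval reached 0.45 to either side of its estimate, which is 1.36-fold, and for 1830 genes (82.2%) the whole interval lay within -1 to 1. It lay within 1.5-fold for 1075 genes (48.3%), so for the others a difference of that size was not excluded. The H libraries were the more uniform: the median SD of log2(FPKM + 1) was 0.13 in H and 0.23 in L, and it was larger in L for 1729 genes (77.7%).

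**Figure D1:**
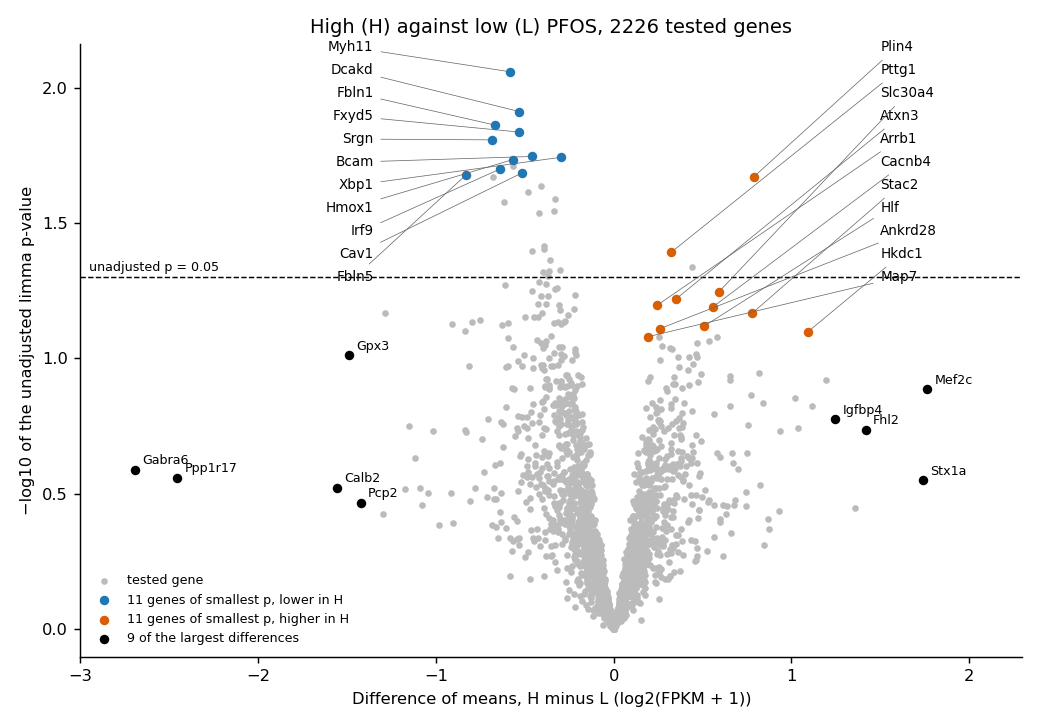
Difference between H and L (horizontal axis, log2(FPKM + 1)) against -log10 of the unadjusted limma p (vertical axis) for 2226 tested genes, with the dashed line at 0.05. Blue and orange points are 11 of the genes of smallest p in each direction and black points 9 of the largest differences; 27 genes above the line lie to the left and 3 to the right, and the largest differences lie below the line.

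The tissue expressed neuronal genes, with the neuronal enolase gene Eno2 at 188 to 205 FPKM in L and 213 to 229.7 FPKM in H, and none of the 5 measured blood cell genes passed the FPKM level. The libraries differed in their levels of genes typical of brain regions. On a log2 score of cerebellum genes minus pallium (cortex and hippocampus) genes, L3 stood at 3.54, L1 at 0.74 and L2 at -1.88, whereas H1, H2 and H3 stood at -0.70, -1.09 and -1.94. The C library C1 stood at 5.16, and the other C libraries at -1.91 and -1.93. Striatal genes were high in L1 and H2, with mean deviations of 1.87 and 1.75 from the average of all libraries, and lay at -0.89 to -1.08 in the other L and H libraries. Whether regional content had a part in any given difference was not tested beyond the values given with it, and in whole tissue fewer cells of a type cannot be told apart from less RNA per cell.

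Genes of the vessel wall and its matrix included the smallest p-value of the comparison and lay mostly lower in H. Of the 6 measured genes of mural cells and smooth muscle, 5 were tested; all 5 lay lower in H, beside 55.1% of all genes below 0, with a median of -0.46 beside -0.03 for all genes. For 2 of the 5 the libraries did not overlap, beside 6.74% of all genes. Of 12 meningeal and fibroblast genes, 10 lay lower and 2 higher, with a median of -0.49, and 1 of the 12 was without overlap, lower in H. The 3 tested genes of complement and coagulation, Vtn and Vwf among them, all lay lower, with a median of -0.50, which is the value of Vtn. Vtn is also on the mural and the meningeal list, and Vwf on the endothelial list, so these lists are not separate evidence. None of these genes passed the adjusted threshold.

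Myh11, the smooth muscle myosin heavy chain (ENSMUSG00000018830, GRCm38 chromosome 16, 14194535 to 14291372, minus strand), stood at 6.09, 6.34 and 6.43 FPKM in L1, L2 and L3 and at 4.61, 3.83 and 3.26 FPKM in H1, H2 and H3. Every H library lay below every L library, and the L values were close to each other. The means were 6.28 ± 0.174 FPKM in L and 3.901 ± 0.678 FPKM in H (SD, n = 3), a ratio of 1.61-fold, with a log2 difference of -0.58 ± 0.17 and an adjusted limma p of 0.961. The C libraries lay at 2.405 to 4.002 FPKM, on the side of H. The difference stayed between -0.70 and -0.48 under every alternative run.

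Bcam, a laminin receptor of the basal surface of cells (ENSMUSG00000002980, chromosome 7, 19756131 to 19771016, minus strand), stood at 7.97, 7.05 and 8.19 FPKM in the L libraries and at 6.09, 5.64 and 4.43 FPKM in the H libraries. The groups did not overlap, and the log2 difference was -0.46 ± 0.16. Its exons overlap those of another gene on the opposite strand, and reads of the pair cannot be told apart unless strand was counted, which is not stated. Vtn, the adhesive glycoprotein vitronectin that brain pericytes express, stood at 34.8, 48.3 and 38.2 FPKM in L and at 38.6, 24.8 and 23.2 FPKM in H. Here L1 and L3 lay below H1, so the groups overlapped, and the log2 difference was -0.50 ± 0.24.

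Fibulins are secreted glycoproteins of basement membranes and elastic fibres, and a pair of them ranked among the 12 smallest p-values on the lower side. Fbln1 (ENSMUSG00000006369, chromosome 15, 85205949 to 85286535, plus strand) stood at 3.14, 3.93 and 2.33 FPKM in L and at 2.33, 1.28 and 1.23 FPKM in H, with L3 and H1 nearly equal, so the absence of overlap hung on that pair. Its log2 difference was -0.67 ± 0.22, a ratio of 1.94-fold between the means. Fbln5, needed for elastic fibre assembly (ENSMUSG00000021186, chromosome 12, 101746565 to 101819055, minus strand), stood at 4.38, 2.13 and 4.22 FPKM in L and at 2.31, 1.596 and 0.826 FPKM in H, where H1 lay above L2. The log2 difference was -0.83 ± 0.29.

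The fibrillar collagen gene Col1a1 stood at 1.003, 1.501 and 1.04 FPKM in L and at 1.07, 0.353 and 0.394 FPKM in H, with a log2 difference of -0.46 ± 0.21. Dcn, the proteoglycan decorin of meningeal fibroblasts, varied over a wider range, at 2.496, 15.2 and 7.53 FPKM in L and at 5.14, 1.32 and 1.35 FPKM in H. Its log2 difference was -1.28 ± 0.61, and -0.76 without L2. These levels of Col1a1 are near the 1 FPKM limit, and Dcn was highest in L2 and H1 within their groups, so for both genes 1 library of H reached the L range. The mean deviation of the whole meningeal list was 0.30, 0.73 and -0.04 in L1, L2 and L3 and 0.39, -0.41 and -0.31 in H1, H2 and H3, so L2 and H1 held the most of these transcripts. Whether meninges kept on the tissue had a part in the matrix genes was not tested.

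Over all 19 tested genes of collagens, laminins, integrins and fibulins, 14 lay lower and 5 higher in H, with a median of -0.25 that became 0.02 among genes with a mean above 5 FPKM. The 7 endothelial genes split into 4 lower and 3 higher, with a median of -0.18 that also turned positive above 5 FPKM. Among them, Vwf, the clotting protein von Willebrand factor, stood at 4.44, 2.62 and 2.56 FPKM in L and 2.56, 2.39 and 1.63 FPKM in H, with L3 and H1 nearly equal. Its log2 difference was -0.38 ± 0.20, and -0.18 without L1 and -0.25 without H3. Cav1, the coat protein of caveolae in endothelium and muscle (ENSMUSG00000007655, chromosome 6, 17306335 to 17341452, plus strand), stood at 5.24, 6.43 and 9.11 FPKM in L and 4.903, 4.62 and 3.82 FPKM in H. All H values lay below the L values, but L3 was the highest, and the log2 difference of -0.52 ± 0.18 became -0.33 without L3.

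Further genes among the 12 lowest p-values in that direction belonged to no single pathway. Dcakd, named for its dephospho-CoA kinase domain (ENSMUSG00000020935, chromosome 11, 102994047 to 103028333, minus strand), stood at 10.1, 9.02 and 9.98 FPKM in L and at 5.99, 7.05 and 6.18 FPKM in H. The gap between the groups was wide beside the spread within them, at 9.69 ± 0.582 FPKM against 6.41 ± 0.565 FPKM (SD, n = 3), and the log2 difference was -0.53 ± 0.17. Its exons overlap those of Nmt1 on the opposite strand. Fxyd5, a small membrane protein that modulates the sodium pump (ENSMUSG00000009687, chromosome 7, 31032722 to 31042481, minus strand), stood at 2.996, 2.79 and 3.003 FPKM in L and at 2.18, 1.14 and 1.94 FPKM in H, without overlap. The log2 difference was -0.53 ± 0.17 with a pseudocount of 1 and -0.87 with a pseudocount of 0.1.

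**Figure D2:**
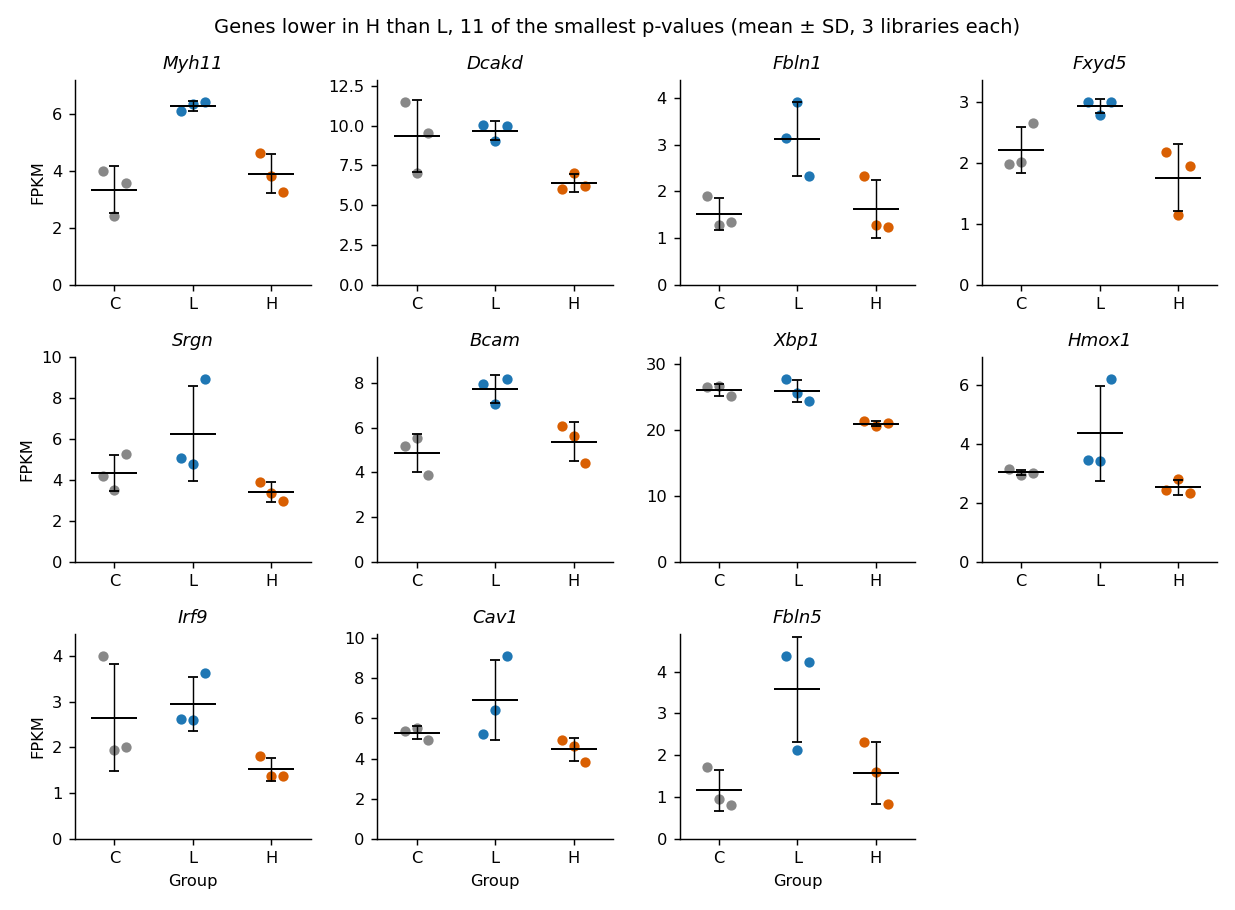
FPKM of 11 genes with the smallest p among those lower in H, one panel a gene, for the C, L and H groups; points are the 3 libraries of each group and bars the mean ± SD. Myh11 and Dcakd show the clearest gap between L and H, and in Srgn, Hmox1 and Cav1 the library L3 stands above the other L libraries.

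Genes of reactive astrocytes and of disease-associated microglia lay lower in H as well, as did 8 of 10 genes of astrocytes in general. The lists of homeostatic microglia and of oligodendrocyte precursors did not lie clearly to one side. The 2 tested genes of homeostatic microglia had a median of -0.05 and the 4 of oligodendrocyte precursors a median of 0.06, and both medians changed sign in some alternatives. All 10 tested genes of reactive astrocytes lay lower in H, beside 55.1% of all genes. Their median of -0.56 became -0.23 without L3, and 3 of the 10 had libraries without overlap, beside 6.74% of all genes. This list shares Fbln5 with the matrix genes above, Stat3 with the cytokine list and Hspb1 with the heat shock list, so these are not separate evidence. The mean deviation of the 10 reactive astrocyte genes was 0.25, 0.01 and 0.76 in L1, L2 and L3 and -0.13, -0.05 and -0.42 in H1, H2 and H3. Gfap, the intermediate filament protein of astrocytes, differed by -0.53 ± 0.41, an interval of -1.46 to 0.40, and by -0.13 without L3 and -0.21 without H3. Of 10 genes of astrocytes in general 8 lay lower, with a median of -0.24. That median became -0.11 without L3, -0.38 without L2 and -0.07 with the regional score as a covariate. The astrocyte glutamate transporter Slc1a3 stood at 109, 75.1 and 89.8 FPKM in L and 64.05, 69.1 and 55.8 FPKM in H, without overlap. Its log2 difference of -0.52 ± 0.34 became -0.22 with the regional score as a covariate. The libraries C1, C2 and C3 stood at 180, 67.9 and 75.2 FPKM.

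Srgn, the core protein of serglycin proteoglycans in secretory granules (ENSMUSG00000020077, chromosome 10, 62493833 to 62527451, minus strand), stood at 5.05, 4.78 and 8.93 FPKM in L and at 3.9004, 3.33 and 2.96 FPKM in H. All H values lay below all L values, with L3 far above the rest, and the log2 difference of -0.68 ± 0.23 became -0.43 without L3. Hmox1, the heme-degrading enzyme and a target of the oxidative stress factor NRF2 (ENSMUSG00000005413, chromosome 8, 75093621 to 75100589, plus strand), stood at 3.45, 3.398 and 6.19 FPKM in L and at 2.43, 2.797 and 2.32 FPKM in H. The groups did not overlap, and the log2 difference of -0.57 ± 0.20 became -0.33 without L3. The NRF2 list as a whole did not lie to one side: of 12 tested, 7 were lower and 5 higher, with a median of -0.04 whose sign turned in 2 alternatives.

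Irf9, the DNA-binding subunit of the complex that carries type I interferon signals (ENSMUSG00000002325, chromosome 14, 55603571 to 55610030, plus strand), stood at 2.62, 2.599 and 3.62 FPKM in L and at 1.81, 1.37 and 1.38 FPKM in H. Every L library exceeded every H library, by a ratio of 1.94-fold between the means, and the log2 difference was -0.64 ± 0.22. Its exons overlap those of Rnf31 on the same strand. Among 18 tested genes of cytokines, chemokines and the interferon response, 14 lay lower and 4 higher, and 3 were without overlap on the lower side, beside 6.74% of all genes. Their median of -0.23 became -0.15 without L3 and -0.12 with the regional score as a covariate. Csf1, the growth factor of microglia and macrophages, differed by -0.30 ± 0.17, and by -0.45 without L2 and -0.13 without L3. All 12 tested genes of disease-associated microglia lay lower, beside 55.1% of all genes, and 0 of the 12 were without overlap, beside 6.74%. Their median of -0.22 became -0.12 without L1 or without L3 and -0.33 without L2. Among them the lysosomal protein gene Cd68 stood at 16.2, 8.55 and 23.2 FPKM in L and 8.68, 12.9 and 8.66 FPKM in H, with L2 below every H library. Apoe, the main lipid carrier of brain, differed by -0.22 ± 0.19, and by -0.06 without L1, -0.33 without H2 and -0.06 without H3.

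Genes of the endoplasmic reticulum (ER) that follow the unfolded protein response included one of the 12 smallest p-values on the lower side, that of Xbp1. This response senses misfolded proteins in the ER and, through the transcription factors XBP1 and ATF6, raises chaperones whose promoters carry the ER stress response element, CCAAT and CCACG with 9 bases between them. Xbp1 (ENSMUSG00000020484, chromosome 11, 5520659 to 5525893, plus strand) stood at 27.8, 25.7 and 24.4 FPKM in L and at 21.3, 20.6 and 21.02 FPKM in H. The H values were close to each other and below every L and C library, with C at 25.1 to 26.8 FPKM. The log2 difference was -0.29 ± 0.10, a ratio of 1.24-fold between the means.

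The element was looked for in RefSeq promoters of GRCm38.p6, from 250 bases before to 50 bases after each gene's start, on both strands. It was present in 39 of 32851 promoters (0.119%). Of the 11 tested genes of the response, all had a promoter in the table and 4 held a match, Calr, Hsp90b1, Pdia6 and Canx; 6 tested genes with a promoter held one in all. The promoters of the first 2 are shown because these genes had the larger differences of the 4, with the element in capitals. Both are written on the strand of the gene, so capitals that begin with CCAAT lie on that strand and those that begin with CGTGG on the other; Hsp90b1 holds 2 matches.

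Calr, chr8:84846882-84847181, minus strand: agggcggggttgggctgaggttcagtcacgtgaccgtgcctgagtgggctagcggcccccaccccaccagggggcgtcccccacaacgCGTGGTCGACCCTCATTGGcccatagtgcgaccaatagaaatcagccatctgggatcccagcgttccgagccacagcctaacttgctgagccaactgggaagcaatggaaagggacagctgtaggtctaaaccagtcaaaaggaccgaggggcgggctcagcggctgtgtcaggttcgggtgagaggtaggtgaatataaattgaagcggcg
Hsp90b1, chr10:86705395-86705694, minus strand: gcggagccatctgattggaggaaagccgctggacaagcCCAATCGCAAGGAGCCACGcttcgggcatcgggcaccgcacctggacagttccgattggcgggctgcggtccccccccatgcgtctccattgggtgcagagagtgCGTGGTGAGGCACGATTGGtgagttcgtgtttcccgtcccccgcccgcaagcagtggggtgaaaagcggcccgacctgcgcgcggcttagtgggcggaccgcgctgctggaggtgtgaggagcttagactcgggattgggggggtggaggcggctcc

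Calr, the calcium-binding chaperone calreticulin, stood at 142, 124 and 151 FPKM in L and at 113, 116 and 118 FPKM in H. The groups did not overlap, and the log2 difference was -0.26 ± 0.12. Hsp90b1, the ER member of the HSP90 chaperones, stood at 30.9, 25.5 and 32.4 FPKM in L and at 24.02, 25.02 and 25.9 FPKM in H, with L2 inside the H range, and differed by -0.23 ± 0.16. The disulfide isomerase gene Pdia6 differed by -0.14 ± 0.18 and the calnexin gene Canx by -0.06 ± 0.13, so all 4 response genes with a match lay lower without passing the test. The promoter window of Xbp1 did not hold these letters. Over the 11 tested genes of the response, 9 lay lower, beside 55.1% of all genes, and 2 higher, with a median of -0.10 that became -0.04 without L3. For 2 of the 11 the libraries did not overlap, both lower in H, beside 6.74% of all genes.

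In the other direction, Plin4 had the smallest p. It encodes perilipin 4, a coat protein of lipid droplets, and is a known target of PPARγ and of glucocorticoids. Plin4 (ENSMUSG00000002831, chromosome 17, 56100591 to 56109803, minus strand) stood at 7.46, 2.91 and 5.25 FPKM in L and at 12.4, 7.61 and 8.204 FPKM in H, with C at 5.73 to 6.67 FPKM. All H values exceeded all L values, the nearest being H2 and L1, while H1 stood apart above the rest. The means were 5.21 ± 2.28 FPKM and 9.42 ± 2.63 FPKM (SD, n = 3), a ratio of 1.81-fold. The log2 difference of 0.79 ± 0.28 had an adjusted limma p of 0.961 and became 0.49 without L2. Its exons overlap those of Hdgfl2 on the opposite strand.

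Genes known to respond to glucocorticoids lay mostly higher in H, with 8 of 9 tested higher and a median of 0.22, beside 44.9% of all genes above 0. The median became 0.38 without L1 and 0.14 without L2. Ddit4, a stress-induced inhibitor of mTORC1, differed by 0.47 ± 0.28, and by 0.27 without L3. The arrestin-domain gene Arrdc2 differed by 0.38 ± 0.27, and by 0.14 without L2 and 0.21 without H1. Mertk, a receptor kinase that phagocytes use to engulf dying cells, differed by 0.22 ± 0.19, and by 0.35 without L2 and 0.03 without L3. Angptl4 and Pdk4 are targets of both PPARα and the glucocorticoid receptor, and differed by -0.20 ± 0.27 and 0.04 ± 0.22. The mean deviation of the list was 0.28, -0.28 and -0.08 in L1, L2 and L3 and 0.45, 0.25 and 0.02 in H1, H2 and H3, so L1 lay among the H libraries.

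The wider PPAR list, with the enzymes of fatty acid oxidation, did not follow Plin4. Of its 17 tested genes 13 lay lower and 4 higher in H, with a median of -0.16 that became -0.09 without L1, -0.08 without L3 and -0.06 with the regional score as a covariate. In each direction 1 of the 17 was without overlap, beside 6.74% of all genes lower and 2.34% higher. Fabp7, the fatty acid binding protein of radial glia and astrocytes, stood at 4.49, 8.28 and 7.67 FPKM in L and at 3.95, 5.38 and 3.04 FPKM in H, and differed by -0.60 ± 0.29. Pparg itself stood at 0.372 to 0.847 FPKM in L and 0.784 to 1.66 FPKM in H. Sterol and lipoprotein genes lay lower for 10 of 14, with a median of -0.18 that became -0.08 without L1, -0.30 without L2 and -0.08 with the regional score as a covariate. Of these, Pltp, which transfers phospholipids between lipoproteins, stood at 14.1, 12.6 and 13.1 FPKM in L and at 11.6, 11.1 and 7.38 FPKM in H, without overlap. Pltp shares exon sequence with Ctsa on the opposite strand. Fatty acid synthesis genes had a median of -0.04, which turned to 0.07 without L3.

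The genes that followed Plin4 by p included regulators of cell signalling and neuronal excitability. With Plin4, 8 of the 11 described here had libraries without overlap, beside 2.34% of all genes on the higher side. These genes were picked by their p in the same libraries, so that count is not separate evidence. Pttg1, the securin that holds back chromatid separation (ENSMUSG00000020415, chromosome 11, 43420250 to 43426251, minus strand), stood at 13.99, 14.2 and 11.7 FPKM in L and at 17.7, 16.2 and 16.7 FPKM in H. The groups did not overlap, and the log2 difference was 0.32 ± 0.13.

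Arrb1, encoding β-arrestin 1, which uncouples receptors from G proteins, stood at 38.4, 36.7 and 33.6 FPKM in L and at 46.1, 40.7 and 42.4 FPKM in H. All H values lay above all L values, and the log2 difference was 0.24 ± 0.11. Atxn3, a deubiquitinase whose repeat expansion causes a spinocerebellar ataxia in humans, stood at 6.48, 7.31 and 5.05 FPKM in L and at 7.31, 9.62 and 7.86 FPKM in H, with L2 and H1 nearly equal, and differed by 0.35 ± 0.16, or by 0.22 without L3. Slc30a4, a zinc transporter, stood at 10.02, 16.9 and 8.19 FPKM in L and at 17.9, 14.5 and 20.03 FPKM in H, where L2 exceeded H2, and differed by 0.59 ± 0.27, or by 0.39 without L3. The microtubule-associated gene Map7 had a small and even gap, at 12.1, 11.1 and 11.3 FPKM in L and 13.6, 12.8 and 13.5 FPKM in H, a difference of 0.19 ± 0.10. Ankrd28, a regulatory subunit of protein phosphatase 6, differed by 0.26 ± 0.13.

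Hlf, a transcription factor on the output side of the circadian clock, stood at 36.1, 50.9 and 30.7 FPKM in L and at 61.8, 41.2 and 65.3 FPKM in H, where L2 exceeded H2. Its log2 difference of 0.51 ± 0.25 became 0.32 with the regional score as a covariate. Of the 4 tested clock genes 3 lay higher, with a median of 0.19 that became 0.39 without L1, 0.08 without L2 and 0.11 without L3. The hour of collection is not stated. Hkdc1, a member of the hexokinase family, was near the FPKM level, at 0.594, 2.45 and 0.191 FPKM in L and 2.32, 1.79 and 5.86 FPKM in H. The groups overlapped, and the difference of 1.09 ± 0.55 became 0.70 without H3, the highest library.

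**Figure D3:**
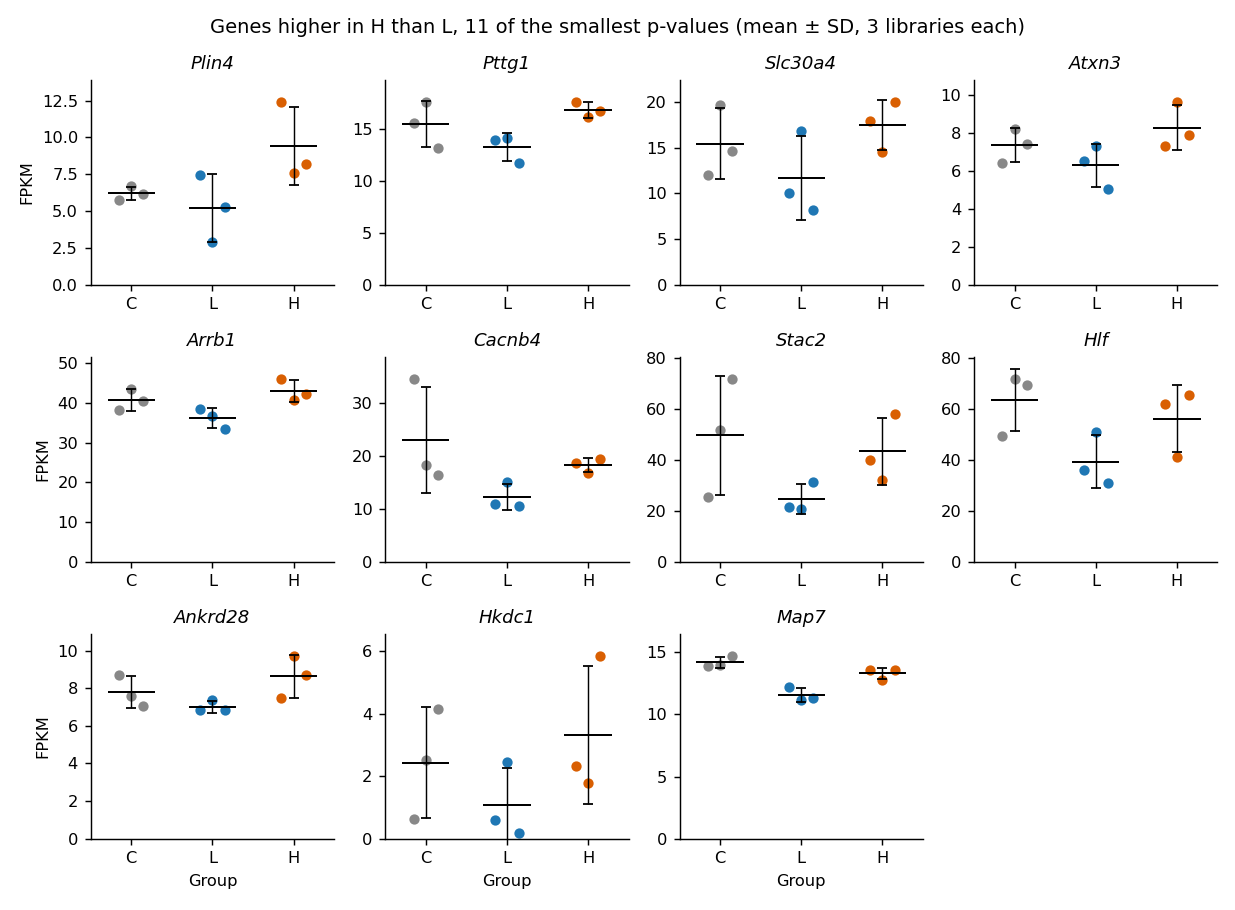
FPKM of 11 genes with the smallest p among those higher in H, one panel a gene, for the C, L and H groups; points are the 3 libraries of each group and bars the mean ± SD. In Plin4, Pttg1, Arrb1, Cacnb4, Stac2 and Map7 every H library lies above every L library, and in Slc30a4 and Hlf the library L2 reaches the H range.

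Genes of calcium channels, pumps and calcium signalling lay higher for 11 of 18, with a median of 0.16 that became 0.04 without L3 and 0.26 without L2. Cacnb4, an auxiliary subunit that brings voltage-gated calcium channels to the membrane (ENSMUSG00000017412, chromosome 2, 52428320 to 52676831, minus strand), stood at 10.9, 15.1 and 10.6 FPKM in L and at 18.6, 16.8 and 19.5 FPKM in H. The groups did not overlap, but the C libraries, at 34.6, 18.4 and 16.3 FPKM in C1, C2 and C3, spanned beyond both. The log2 difference was 0.56 ± 0.26. Stac2, an adaptor that binds voltage-gated calcium channels (ENSMUSG00000017400, chromosome 11, 98036623 to 98053462, minus strand), stood at 21.4, 20.9 and 31.3 FPKM in L and at 39.8, 32.3 and 57.9 FPKM in H, with a gap between L3 and H2 that was small beside the spread of H. The log2 difference was 0.78 ± 0.37, a ratio of 1.77-fold between the means.

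Receptors for GABA, the main inhibitory transmitter, lay to both sides. Gabrb2, a β subunit of the synaptic receptor, stood at 8.78, 10.03 and 5.73 FPKM in L and at 12.2, 11.9 and 11.98 FPKM in H. The groups did not overlap, and the log2 difference of 0.54 ± 0.28 became 0.33 without L3, the lowest library. The cerebellar granule cell subunit Gabra6 lay lower, as given with the largest differences. Over all 8 tested GABA and glycine receptor genes 5 were lower and 3 higher, with a median of -0.09 that changed sign in 6 alternatives, to 0.14 without L1 and 0.02 without L2 among them.

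The lists of synaptic vesicle, pan-neuronal and immediate early genes lay slightly higher in H, by amounts that depended on the libraries used. Glutamate receptor genes did not, with 4 of 8 higher, 4 lower and a median of -0.04 that changed sign in 4 alternatives. Synaptic vesicle genes were higher for 17 of 21 with a median of 0.10, but the median was -0.04 without L3 and 0.23 without L2. Pan-neuronal genes had 5 of 9 higher and a median of 0.11. Of the 10 immediate early genes, which neurons induce on activity, 8 were higher with a median of 0.17 that was 0.03 without L3 and turned negative with the regional score as a covariate. Their best known member Fos differed by -0.05 ± 0.34, and its sign turned in several alternatives. Klf4 was the exception with the smallest p, at 2.76, 1.89 and 3.16 FPKM in L and 1.798, 1.45 and 1.54 FPKM in H. Myelin genes had 4 of 6 higher and a median of 0.13, which became 0.51 without L3 and -0.27 without L2.

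Genes of the respiratory chain and of cytosolic ribosomes lay mostly higher in H, beside 44.9% of all genes, by small amounts. Of 22 tested genes of the respiratory chain and ATP synthase 20 lay higher in H, with a median of 0.17 that kept its sign in every alternative run. The median was 0.27 without L2, 0.13 without L1 or without L3, and 0.11 with the regional score as a covariate. Of the 22 genes, 0 had libraries without overlap, beside 2.34% of all genes on the higher side. Cox7c, a subunit of cytochrome c oxidase, stood at 78.3, 104 and 61.3 FPKM in L and 110.5, 117 and 99.5 FPKM in H. Ndufs3, a core subunit of complex I, stood at 25.5, 40.5 and 24.2 FPKM and 41.3, 39.1 and 35.3 FPKM. L2 lay with the H libraries for these genes. Of 13 tested cytosolic ribosomal protein genes 12 lay higher, with a median of 0.18, but without L3 the median was -0.02 and without L2 0.38. Rps18 stood at 28.8, 40.96 and 20.7 FPKM in L and 45.7, 38.5 and 31.3 FPKM in H. Mitochondrial ribosomal protein genes were higher for 8 of 14, with a median of 0.03 that turned to -0.045 after the trend with transcript length was removed. Proteasome genes were higher for 8 of 13, with a median of 0.09 that became 0.01 without L1 and 0.15 without L2.

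Across the 49 lists with at least 3 tested genes, the median kept its sign in every alternative for 22. Lists of splicing and RNA binding (46 genes, median -0.05), chromatin (24 genes, -0.04), lysosome and autophagy (26 genes, -0.06), solute carriers (48 genes, -0.07), glycolysis and the citric acid cycle (19 genes, 0.01, with a sign that changed in 5 alternatives) and amyloid and tau (14 genes, 0.02) lay close to the median of all genes. Among the splicing genes 6 of 46 were without overlap, all lower in H, beside 6.74% of all genes, and the list's median changed sign in 2 alternatives. One of the 6 was Ptbp1, a splicing repressor of neuronal exons, at 8.503, 4.74 and 7.17 FPKM in L and 4.14, 3.96 and 4.704 FPKM in H, with L2 and H3 nearly equal.

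**Figure D4:**
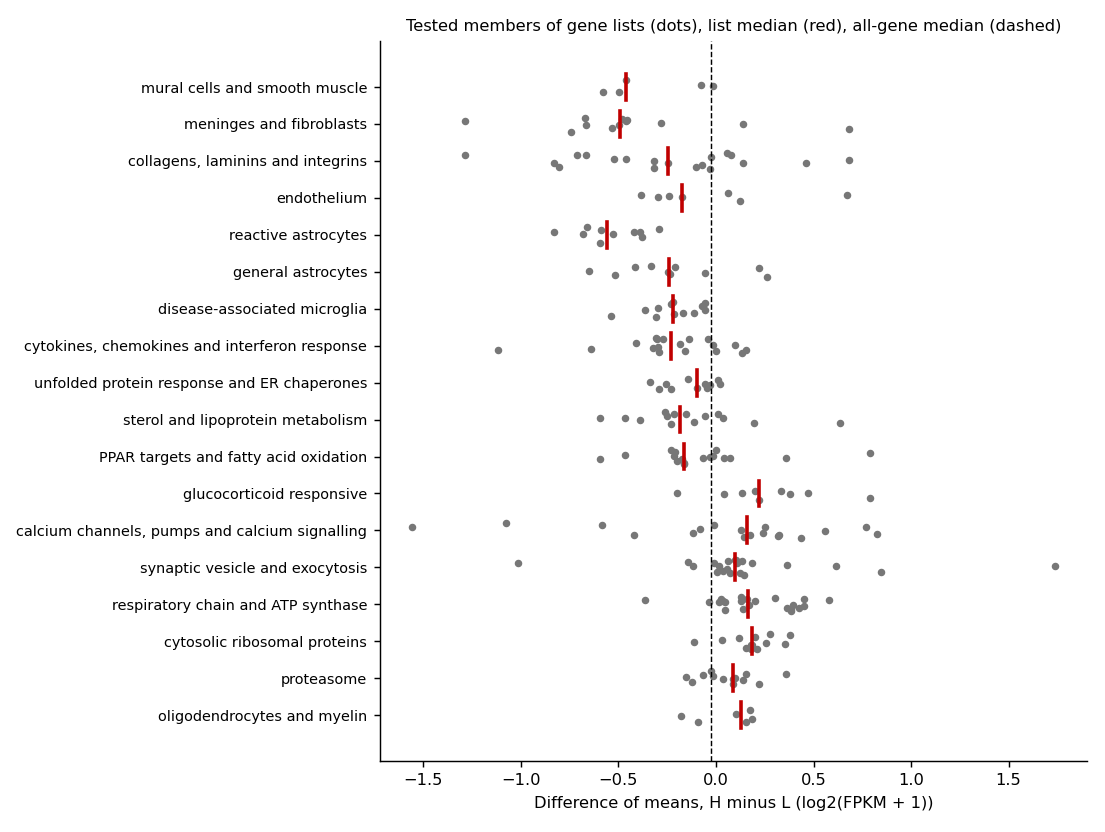
Log2 difference between H and L (horizontal axis, log2(FPKM + 1)) for each tested member of 18 gene lists, one row a list; dots are genes, the red bar is the median of the list, and the dashed line is the median of all genes at -0.03. The medians of mural cell, meningeal and reactive astrocyte genes lie to the left (-0.46, -0.49 and -0.56), and those of glucocorticoid, ribosomal and respiratory genes lie to the right (0.22, 0.18 and 0.17).

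Among the largest differences, 7 of the 9 shown here were of genes on the lists of brain regions. Those lists were written with earlier results of these data known, so that count is not separate evidence. There were 24 genes beyond 1 in either direction, 14 lower and 10 higher, and 0 of these reached an unadjusted p under 0.05. Gabra6, a GABA receptor subunit of cerebellar granule cells, stood at 14.8, 0.0603 and 55.02 FPKM in L and at 2.48, 0 and 0 FPKM in H. Its difference of -2.69 ± 2.22 rested on L3 and L1. Ppp1r17, a phosphatase inhibitor of Purkinje cells, stood at 16.9, 0.0854 and 45.7 FPKM in L and at 2.396, 0.49003 and 0.0902 FPKM in H, a difference of -2.45 ± 2.11, and -1.32 without L3. Pcp2, a further Purkinje cell gene, differed by -1.42 ± 1.41, which became 0.01 with the regional score as a covariate.

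Calb2, encoding the calcium buffer calretinin of granule cells and interneurons, stood at 99.1, 20.7 and 112 FPKM in L and at 34.7, 35.5 and 6.396 FPKM in H, with L2 below H1 and H2. Gpx3, a secreted glutathione peroxidase, followed the same libraries at 47.9, 5.02 and 46.9 FPKM and 10.5, 9.97 and 4.05 FPKM. In the opposite direction, Mef2c, a transcription factor of cortical neurons, stood at 18.6, 47.1 and 3.03 FPKM in L and at 50.6, 35.9 and 76.9 FPKM in H. Stx1a, a syntaxin of the synaptic membrane, differed by 1.74 ± 1.51, Igfbp4 by 1.25 ± 0.83 and Fhl2 by 1.42 ± 0.98, and without L3 these were 0.61, 0.75 and 0.66. Adora2a, the adenosine receptor of striatal neurons, stood at 26.4, 0.425 and 0.5696 FPKM in L and at 0.687, 26.5 and 0.811 FPKM in H, high in L1 and H2 alone, and differed by 0.15 ± 1.53.

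As lists, all 11 tested cerebellum genes lay lower in H with a median of -1.12, which was -0.55 without L3, -1.86 without L2 and -0.02 with the regional score as a covariate. The 9 hypothalamus genes had 7 lower and a median of -0.56, which was -0.16 without L1 and -0.98 without L2. Of the 7 pallium genes 6 lay higher with a median of 0.87, which was -0.06 without L3 and 1.64 without L2. The regional score is made from these genes, so its effect on them is built in. For the vessel and matrix genes above, Myh11 differed by -0.50 with that covariate, Bcam by -0.40 and Fbln1 by -0.65, and for Xbp1 and Plin4 the values were -0.29 and 0.85. Fbln5 moved from -0.83 to -0.62 and Irf9 from -0.64 to -0.45. The median moved from -0.25 to -0.13 for the collagen, laminin and integrin list, from -0.46 to -0.40 for mural genes and from -0.49 to -0.44 for meningeal genes. Striatal genes do not enter the score. The astrocyte gene Slc1a3 moved further, from -0.52 to -0.22.

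**Figure D5:**
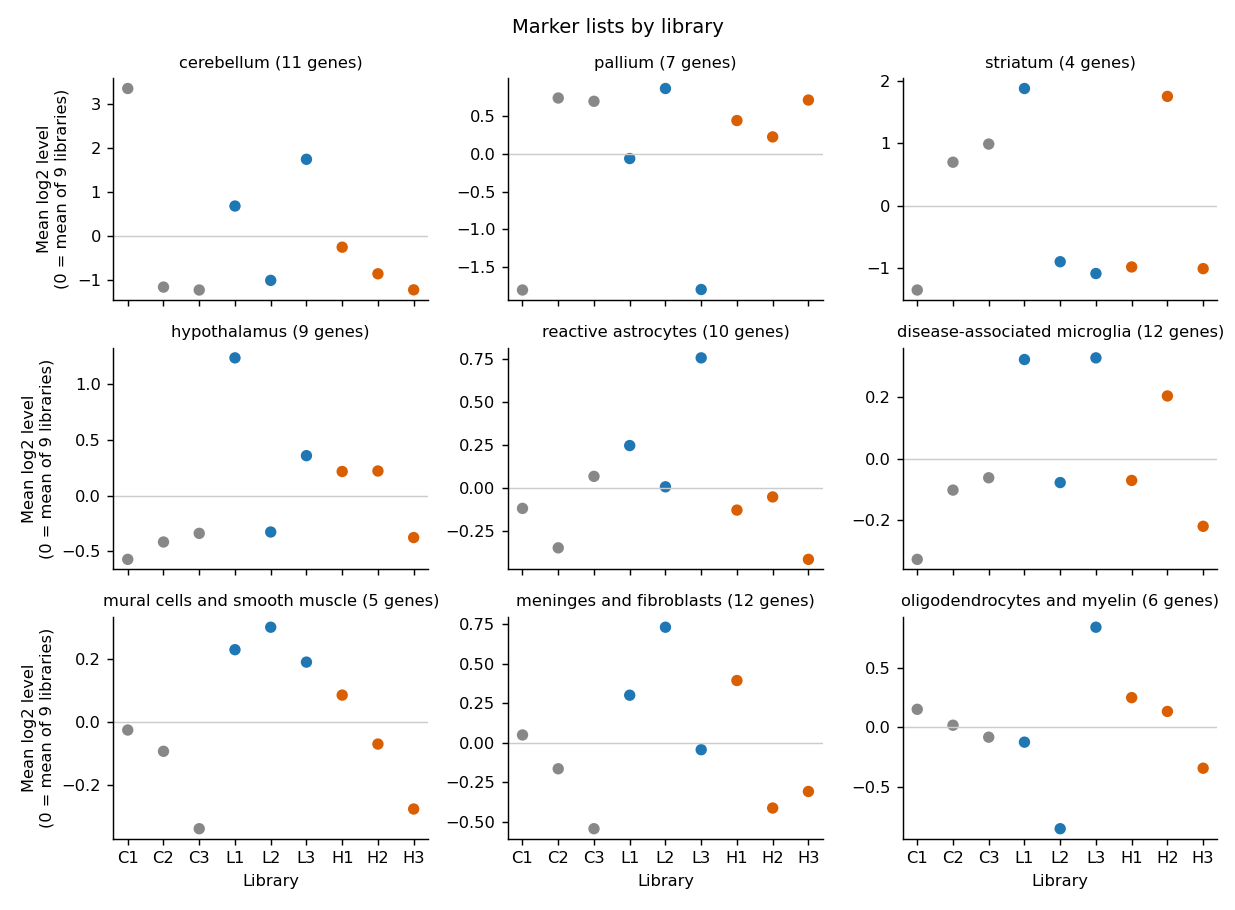
Mean deviation of selected gene lists from the average of all libraries (vertical axis, log2(FPKM + 1)) in each of the 9 libraries (horizontal axis). L3 and C1 stand high for cerebellum and low for pallium, L1 and H2 stand high for striatum, and mural cell genes lie above 0 in all 3 L libraries.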

How the data were processed

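RNA-seq of 9 mouse brain libraries was analysed. Per the labels the genome build was GRCm38; no aligner, counter or strand setting is stated. The deposited table gives FPKM per gene, made by the authors, for 2996 genes whose Ensembl numbers run from 1 to 21270, so other genes were not analysed here. FPKM times length gave whole reads within 0.01 reads for all values; listed genes took 3008813 to 4153307 of 15371513 to 20431208 reads per library, and 3 reads on 1 kb are 0.147 to 0.195 FPKM.

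Genes above 1 FPKM in at least 3 libraries were kept, log2(FPKM + 1) was fitted over the 3 groups with limma 3.58.1 in R 4.3.3 (trend, robust, 6 residual degrees of freedom), H was contrasted with L, and p-values were Benjamini-Hochberg adjusted over 2226 genes. The log scale understates changes of low genes. The steps were run on simulated data whose libraries did not differ in levels of regional genes, unlike the real ones, so that run does not show how the fit performs here. Named were the 12 smallest p-values and 5 largest differences in each direction, 10 genes in any case, and up to 4 smallest p-values per list, plus Pdia6 and Canx, chosen after their values were seen; a few genes that this rule picks are not reported here. Members, lists and the promoter motif were chosen with earlier results of these data known. Positions are from GENCODE M21 by gene ID. In that annotation 9 of the 37 genes named by p, size of difference or in any case have an exon that overlaps another gene. Pcp2, Ndufs3, Rps18 and Ptbp1 are among the named genes that overlap a protein coding gene on the opposite strand.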

Additional observations from a re-analysis of the deposited data

How the results depend on the processing

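No alternative called a gene at an adjusted p under 0.05 or under 0.1. Genes at an unadjusted p under 0.05 numbered 30 as reported, 16 above a mean of 5 FPKM, 64 with no filter, 78 with L and H alone, 64 without C1 and L3, and 165 with voom quality weights; leaving out 1 library gave 7 to 185. Genes without overlap numbered 202 as reported, 270 with no filter, 120 above 5 FPKM, 394 without C1 and L3, and 324 to 911 without 1 library of L or H, where fewer libraries overlap less by construction. With the replicate number as a block 40 genes had an unadjusted p under 0.05. The labels do not say what a shared number means, so the numbers were not taken as pairs. Deviations of same-numbered L and H libraries from their group means correlated at -0.35, -0.31 and -0.36. These values cannot decide whether the numbers are pairs, because levels of regional genes differ between the libraries.

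Of 878 values for 37 named genes under alternatives, 864 kept their direction. Most of these genes were named for a small p or a large difference in the same data, which favours a kept direction. Pcp2 became 0.0075 with the regional score as covariate. Leaving out 1 library gave -0.41 to 0.15 for Fos, -0.49 to 0.067 for Angptl4, -0.13 to 0.22 for Pdk4 and -1.17 to 1.55 for Adora2a. Fos became 0.023 with quantile scaling, 0.13 without H1, 0.12 without H2 and 0.15 without L2. Angptl4 was 0.067 without L1, and Pdk4 -0.11 without H1 and -0.13 without L2. Adora2a was -0.76 with voom quality weights, -0.46 with the covariate, -0.51 without L3, with or without C1, -1.17 without H2 and -0.58 without L2. The causes were not tested. Of 1176 list medians 78 moved by more than 1 SD. With 3 libraries a group, animals not stated and levels of regional genes that differ between libraries, no difference of any size passed the adjusted threshold.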
